A study of Mus musculus with 8 samples.

Results

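Eif6 and the genes of its 60S release factors (Sbds, Efl1, Nmd3, Lsg1, Rack1, Mrto4, Zfp622 and Dnajc21) were examined in gastrocnemius and tibialis anterior (TA) muscle of Eif6+/- and wild-type (WT) mice. They were taken as the array probes whose RefSeq accession belongs to 1 of these 9 genes, which gave 11 of 55681 probes and 9 of the 20660 genes to which a probe could be matched. Eif6 and Dnajc21 each had 2 probes, and every probe is given here.

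eIF6 binds the 60S ribosomal subunit on the face that meets the 40S subunit, and so keeps the subunits apart while the 60S subunit matures on its way from the nucleolus to the cytoplasm. NMD3 links the maturing subunit to the export receptor XPO1. In the cytoplasm the GTPase EFL1 and its partner SBDS, the protein affected in Shwachman-Diamond syndrome, release eIF6, and the GTPase LSG1 releases NMD3. MRTO4 holds the place of the stalk protein RPLP0 until late in assembly, ZFP622 and DNAJC21 take part in clearing late assembly factors from the subunit, and RACK1 is a protein of the 40S subunit that binds protein kinase C and eIF6. eIF6 is known as a factor that can limit the initiation of translation. The study from which the data come states that basal translation rates are not affected in Eif6+/- mice.

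The Eif6+/- mice carried 1 inactivated Eif6 allele in the germline, and thus in all cells of the muscle, and WT mice of the same age served as controls; by the study's methods all were male and on a C57BL6 background. They were 8 to 16 weeks old, and the labels give no treatment for either group. On each of 8 two-colour Agilent arrays, 4 for each muscle, RNA from 1 Eif6+/- mouse was hybridized together with RNA from 1 WT mouse drawn at random (pairs 1 to 4 of each muscle). The labels give Cy5 to Eif6+/- and Cy3 to WT RNA on all 8 arrays, so that dye and genotype cannot be told apart within a muscle. The 8 arrays shared a slide on which each muscle filled its own row, so row and muscle cannot be told apart.

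Per array, 44.8% to 49.8% of probes were well above background in the Cy5 channel, as were 40.2% to 47.3% in the Cy3 channel. The 11 probes of Eif6 and its release factors were well above background in both channels on each of the 8 arrays (88 of 88 spots averaged by probe in each channel), so that no member was lost to the filter on dim probes. The values given are log2 ratios of Eif6+/- over WT signal after background correction and normalization, where 0 stands for equal signal. Each was tested against 0 with limma, and a gene was called when its Benjamini-Hochberg adjusted p, over 23790 kept probes in gastrocnemius or 23383 in TA, was under 0.1. A gene with more than 1 probe was counted by its brightest probe. Precision is limited by the number of arrays, 4 for each muscle.

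Eif6 fell in both muscles of Eif6+/- mice, Efl1 rose in gastrocnemius and Rack1 rose in TA. Among the 9 genes, 1 was called higher and 1 lower in gastrocnemius (limma), beside 9.87% of 12601 genes called higher and 5.54% called lower. In TA, 1 of the 9 was called higher and 1 lower, beside 8.99% and 7.29% of 12375 genes. Apart from Eif6 itself, whose allele defines the genotype, the share of members called was thus near the share of all genes called. The median log2 ratio of the 8 release factors without Eif6 was 0.14 in gastrocnemius and 0.07 in TA, and the median over all genes tested was 0.02 in each muscle. By SAM, the test named in the study's methods, at a false discovery rate of 0.1, Eif6, Sbds, Efl1, Lsg1 and Rack1 were called in gastrocnemius (5 of 9, beside 25.1% of genes), and Eif6, Efl1 and Rack1 in TA (3 of 9, beside 21% of genes). At the cutoff of 0.05 that the methods give for SAM, the members called were Eif6, Efl1 and Lsg1 in gastrocnemius (3 of 9, beside 1703 of 12601 genes) and Eif6 and Rack1 in TA (2 of 9, beside 948 of 12375). The members called by SAM other than Eif6 all had mean ratios above 0.

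**Figure D1:**
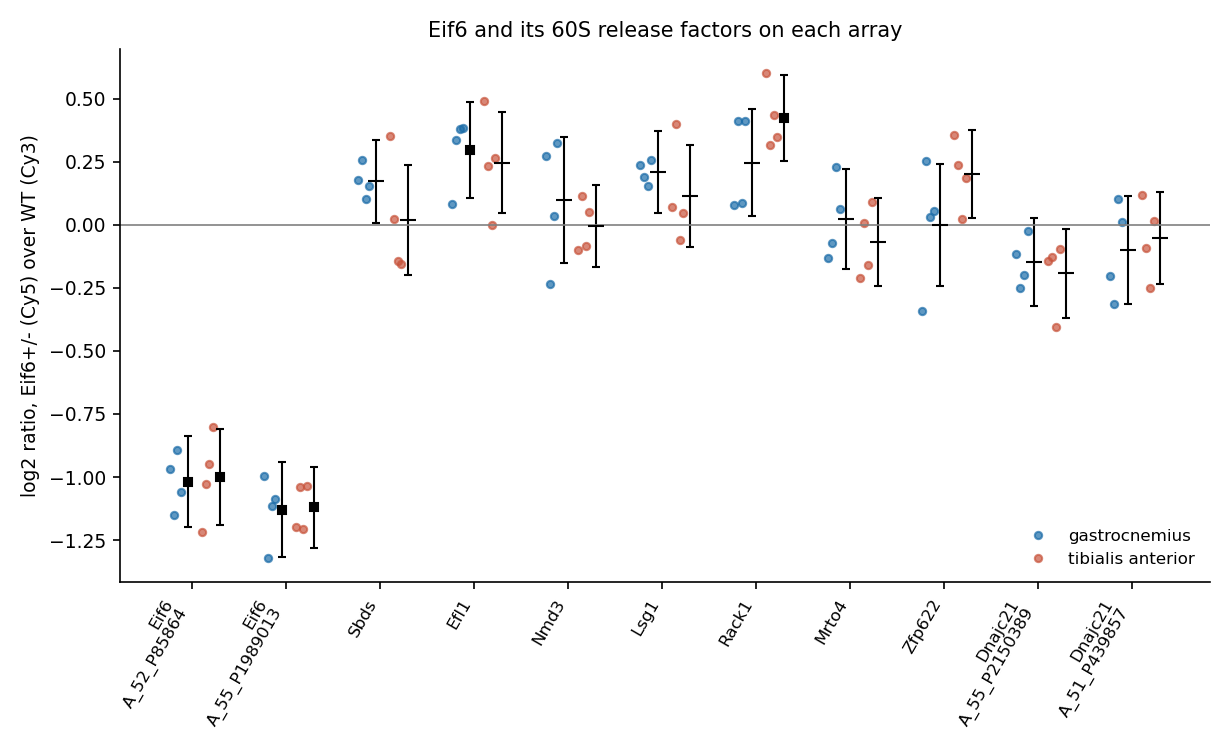
Log2 ratio of Eif6+/- (Cy5) over WT (Cy3) for each of the 11 probes, with 1 point per array (blue, gastrocnemius; red, TA) and the limma mean with its 95% confidence interval in black; a filled square marks a mean with an adjusted p under 0.1. Both Eif6 probes lie between −1.32 and −0.80 on all 8 arrays, whereas the means of the 8 release factors lie between −0.19 and 0.42.

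Eif6 was measured first, since it checks the genotype labels. In gastrocnemius, probe A_52_P85864 of Eif6 gave log2 ratios of −0.97, −1.15, −0.89 and −1.06 in pairs 1 to 4. In TA, it gave −1.22, −1.03, −0.95 and −0.80. The ratio of Eif6 was thus below 0 on each of the 8 arrays, as the labels require. In gastrocnemius the mean of Eif6 was −1.02 ± 0.11 (SD, n = 4 pairs; limma adjusted p = 0.0239), with a standard error of 0.076. The TA mean was −0.999 ± 0.17 (SD, n = 4 pairs; limma adjusted p = 0.0108), with a standard error of 0.083. Expressed as a share of WT signal, Eif6 stood at 49.4% in gastrocnemius (95% confidence interval 43.6% to 55.9%) and at 50.03% in TA (43.9% to 57.0%). In a whole muscle, fewer cells of a type and less RNA per cell cannot be told apart, and where the Eif6 probes lie with respect to the inactivated stretch is unknown.

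The other probe of Eif6, A_55_P1989013, gave −0.995, −1.32, −1.11 and −1.09 in gastrocnemius and −1.20, −1.04, −1.21 and −1.04 in TA. Its means were −1.13 ± 0.14 (limma adjusted p = 0.0239) and −1.12 ± 0.095 (limma adjusted p = 0.00292; SD, n = 4 pairs each), or 45.7% and 46.0% of WT signal. The Eif6 probes differed by −0.26 to 0.02 per array, a root mean square difference of 0.158. The fall of Eif6 was among the largest measured: 23 of 12601 genes in gastrocnemius and 3 of 12375 in TA had a lower mean log2 ratio. In gastrocnemius the call of Eif6 depended on single pairs: without pair 3 its log2 ratio was −1.06 (limma adjusted p = 0.121) and without pair 4 it was −1.004 (limma adjusted p = 0.157). In both cases limma called 0 genes in gastrocnemius, with 2442 and 2679 genes at an unadjusted p under 0.05.

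**Figure D2:**
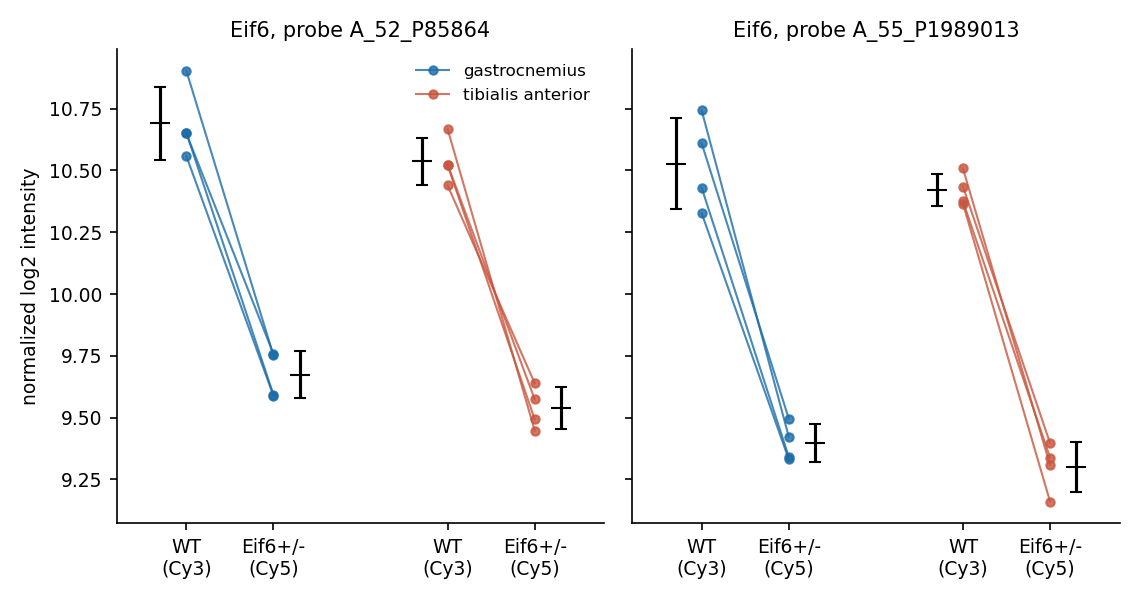
Normalized log2 intensity of the Eif6 probes in the WT (Cy3) and Eif6+/- (Cy5) channel of each array, with a line joining the mice of a pair and the mean with its SD in black. For probe A_52_P85864 the Eif6+/- levels (9.45 to 9.76) lie below the WT levels (10.44 to 10.90) in both muscles.

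As levels rather than ratios, normalized log2 intensities of Eif6 (probe A_52_P85864) were ordered WT gastrocnemius, WT TA, Eif6+/- gastrocnemius and Eif6+/- TA. The level of Eif6 was 10.69 ± 0.15 in WT gastrocnemius and 10.54 ± 0.095 in WT TA (SD, n = 4), and these ranges overlapped. In Eif6+/- mice the level of Eif6 was 9.67 ± 0.095 in gastrocnemius and 9.54 ± 0.085 in TA (SD, n = 4), again with overlapping ranges. Neither the difference between the WT muscles (0.15, 95% confidence interval −0.05 to 0.36, limma adjusted p = 0.313) nor that between the Eif6+/- muscles (0.13, −0.02 to 0.29, limma adjusted p = 0.266) passed the threshold. The lowest WT level of Eif6, 10.44 in TA, lay above the highest Eif6+/- level, 9.76 in gastrocnemius.

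The genes whose ratios were closest to those of Eif6 over the 8 arrays were Map1lc3a, Atp6v0b, Psmb7 and Bcam, with root mean square differences from Eif6 of 0.317, 0.375, 0.377 and 0.386. None of these 4 genes came as close to Eif6 as its own other probe. Map1lc3a, which encodes an autophagosome protein, had mean log2 ratios of −0.73 in gastrocnemius and −0.86 in TA, short of those of Eif6. Of the 20 protein-coding genes nearest to Eif6 on mouse chromosome 2 (10 on each side), 13 were tested in each muscle. In gastrocnemius Cep250 (−0.46), Ergic3 (−0.32) and Cpne1 (−0.35) were lower and Gdf5 (0.28) was higher (limma). In TA Cep250 (−0.36), Cpne1 (−0.28), Myh7b (−0.68) and Uqcc1 (−0.40) were lower, and Gdf5 (0.36), Ncoa6 (0.40) and Procr (0.43) were higher (limma). These 1 higher and 3 lower of 13 in gastrocnemius, and 3 higher and 4 lower of 13 in TA, stand beside 9.87% and 5.54% of all genes in gastrocnemius and 8.99% and 7.29% in TA. The fall of Eif6 was larger than that of any called neighbour.

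The promoters of 4 release factors are shown because Efl1 and Rack1 were the members that rose and because NMD3 and LSG1 act on one another. RefSeq promoter sequences (build GRCm38.p6, 250 bases before to 50 bases after the gene start) matched 7 of the 9 genes, namely Efl1, Nmd3, Lsg1, Rack1, Mrto4, Zfp622 and Dnajc21. Eif6 and Sbds are named only. The sequences are read 5′ to 3′ on the strand of the gene, Efl1 at chr7:82648364-82648663 (plus strand), Rack1 at chr11:48800110-48800409 (plus strand), Nmd3 at chr3:69721805-69722104 (plus strand) and Lsg1 at chr16:30587540-30587839 (minus strand). Capitals mark CCGGAA or its reverse complement TTCCGG, the core to which ETS factors such as GABPA bind.
Efl1: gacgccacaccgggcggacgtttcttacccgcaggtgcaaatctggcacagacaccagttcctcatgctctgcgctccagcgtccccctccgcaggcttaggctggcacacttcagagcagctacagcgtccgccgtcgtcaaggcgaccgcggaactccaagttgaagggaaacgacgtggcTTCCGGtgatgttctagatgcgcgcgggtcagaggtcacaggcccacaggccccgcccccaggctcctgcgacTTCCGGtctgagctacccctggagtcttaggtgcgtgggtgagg
Rack1: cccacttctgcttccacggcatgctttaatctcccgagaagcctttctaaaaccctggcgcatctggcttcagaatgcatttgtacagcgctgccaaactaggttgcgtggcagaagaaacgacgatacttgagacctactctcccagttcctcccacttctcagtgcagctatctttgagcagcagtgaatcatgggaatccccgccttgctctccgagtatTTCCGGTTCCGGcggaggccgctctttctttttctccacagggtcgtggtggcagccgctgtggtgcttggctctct
Nmd3: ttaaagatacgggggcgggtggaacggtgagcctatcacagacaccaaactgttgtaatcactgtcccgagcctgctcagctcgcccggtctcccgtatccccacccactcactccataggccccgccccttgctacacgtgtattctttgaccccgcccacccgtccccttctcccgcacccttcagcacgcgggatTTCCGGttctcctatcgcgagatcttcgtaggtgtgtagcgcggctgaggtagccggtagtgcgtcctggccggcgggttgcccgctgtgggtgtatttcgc
Lsg1: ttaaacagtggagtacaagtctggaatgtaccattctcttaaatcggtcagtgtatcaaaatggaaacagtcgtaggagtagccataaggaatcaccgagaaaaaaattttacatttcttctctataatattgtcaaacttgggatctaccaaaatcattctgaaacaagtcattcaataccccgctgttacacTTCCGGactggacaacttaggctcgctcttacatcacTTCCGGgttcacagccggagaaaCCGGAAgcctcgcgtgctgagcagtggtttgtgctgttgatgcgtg

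CCGGAA, searched on both strands, was present in 6 of the 7 member promoters (Efl1, Nmd3, Lsg1, Rack1, Zfp622 and Dnajc21) and in 14.9% of 32851 promoters of the same length. Lsg1 held 3 copies, Efl1 and Rack1 held 2 each, and Nmd3, Zfp622 and Dnajc21 held 1 each. In Rack1 the copies stood side by side, at 27 and 21 bases before the gene start. In Efl1 they began 67 bases before and 7 bases after the start, and in Nmd3 the copy began 52 bases before it. In Lsg1 they began 56 and 19 bases before and 5 bases after the start. The E-box CACGTG, which reads the same on both strands, was present in the Nmd3 promoter only (1 of 7 members, beside 7.15% of promoters), and GGGCGG, on both strands, was present in 4 of 7 (Efl1, Nmd3, Zfp622 and Dnajc21, beside 35.7%). These motifs share no letters where they lie in the promoters of these genes. Mrto4 held none of these 3 motifs. A match describes the letters of this window and is not evidence of binding, and the members with CCGGAA include genes that were called and genes that were not.

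The release of eIF6 from the 60S subunit rests on SBDS and EFL1, and their transcripts were examined next. Efl1 (probe A_55_P1972530) gave log2 ratios of 0.08, 0.34, 0.38 and 0.38 in gastrocnemius pairs 1 to 4, above 0 on all 4 arrays. Its mean was 0.30 ± 0.14 (SD, n = 4 pairs; 95% confidence interval 0.11 to 0.49, limma adjusted p = 0.0767), or 123% of WT signal. In TA, Efl1 gave 0.49, 0.23, −0.00 and 0.27. Its mean in TA, 0.25 ± 0.20 (SD, n = 4 pairs), did not pass the threshold (95% confidence interval 0.05 to 0.45, limma adjusted p = 0.119), although 3 of 4 pairs lay above 0. The rise of Efl1 in gastrocnemius was called in 11 of 16 alternatives and not in 5. Without pair 2, 3 or 4 its mean was 0.28, 0.27 and 0.27 (limma adjusted p = 0.149, 0.242 and 0.253), and it was 0.37 both without the offset of the background correction (0.101) and with the scanner software's processed signals (0.112). In TA, Efl1 was called with loess normalization alone (0.29, limma adjusted p = 0.0849), with the deposited log2 ratios (0.31, 0.089), without pair 3 (0.33, 0.0913) and by SAM (q = 0.0991).

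Sbds (probe A_51_P466875) gave log2 ratios of 0.18, 0.26, 0.10 and 0.15 in gastrocnemius and 0.35, 0.02, −0.14 and −0.16 in TA. In gastrocnemius Sbds lay above 0 on all 4 arrays, whereas in TA pairs 1 and 2 lay above 0 and pairs 3 and 4 below it. The mean of Sbds was 0.17 ± 0.064 in gastrocnemius (SD, n = 4 pairs; limma adjusted p = 0.174, SAM q = 0.083) and 0.02 ± 0.24 in TA (SD, n = 4 pairs; limma adjusted p = 0.919). The spread between pairs of Sbds in TA exceeded its mean, and without TA pair 1 the mean was −0.09.

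NMD3 and LSG1 form the next step, in which the export adaptor is taken off the subunit in the cytoplasm. Lsg1 (probe A_55_P2011747) gave log2 ratios of 0.24, 0.19, 0.16 and 0.26 in gastrocnemius and 0.07, 0.40, −0.06 and 0.05 in TA. In gastrocnemius the 4 pairs of Lsg1 lay close together, with a mean of 0.21 ± 0.046 (SD, n = 4 pairs), the smallest spread of the 9 genes in that muscle. Lsg1 was nevertheless not called by limma (adjusted p = 0.113), which draws the spread of each probe towards that of all probes, whereas SAM gave it q = 0.0425. Lsg1 passed the limma threshold in gastrocnemius when no filter on dim probes was used (adjusted p = 0.0805) or when both muscles shared 1 spread (adjusted p = 0.0983). In TA the mean of Lsg1 was 0.11 ± 0.20 (SD, n = 4 pairs; limma adjusted p = 0.429), with pair 2 (0.40) above the other 3 pairs. It was 0.02 without pair 2, 0.17 without pair 3 and 0.23 with processed signals, and was not called.

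Nmd3 (probe A_51_P478311) gave log2 ratios of 0.27, −0.24, 0.03 and 0.32 in gastrocnemius and −0.10, 0.11, −0.08 and 0.05 in TA. Pairs of Nmd3 lay on both sides of 0 in each muscle. Its means were 0.10 ± 0.26 in gastrocnemius (SD, n = 4 pairs; limma adjusted p = 0.594) and −0.00 ± 0.10 in TA (SD, n = 4 pairs; limma adjusted p = 0.972). Without pair 1, 2 or 4 its gastrocnemius mean was 0.04, 0.21 or 0.02, and with processed signals 0.05, not called in any case. The TA mean of Nmd3 was so close to 0 that its sign changed with loess normalization alone (0.03) and with the deposited log2 ratios (0.02). The 95% confidence interval of Nmd3 ran from −0.15 to 0.35 in gastrocnemius and from −0.17 to 0.16 in TA, so that changes within these limits are not excluded in either direction.

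Rack1 (probe A_51_P488673), which encodes the partner of eIF6 on the 40S subunit, rose in TA. Its log2 ratios in TA pairs 1 to 4 were 0.60, 0.31, 0.43 and 0.35. In gastrocnemius they were 0.08, 0.41, 0.09 and 0.41. Rack1 was above 0 on all 8 arrays, and in gastrocnemius its pairs fell into a low group (pairs 1 and 3) and a high one (pairs 2 and 4). The mean of Rack1 in TA was 0.42 ± 0.13 (SD, n = 4 pairs; 95% confidence interval 0.25 to 0.60, limma adjusted p = 0.0251), or 134% of WT signal. Its mean in gastrocnemius, 0.25 ± 0.19 (SD, n = 4 pairs; 0.03 to 0.46, limma adjusted p = 0.144), did not pass the threshold. Rack1 in TA was not called without pair 1 (0.36, limma adjusted p = 0.142), where the genes called in TA fell from 2014 to 68. In gastrocnemius Rack1 was called with loess normalization alone (0.34, limma adjusted p = 0.0528), with the deposited log2 ratios (0.36, 0.0566), with a spread shared by both muscles (0.0727) and by SAM (q = 0.083).

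**Figure D3:**
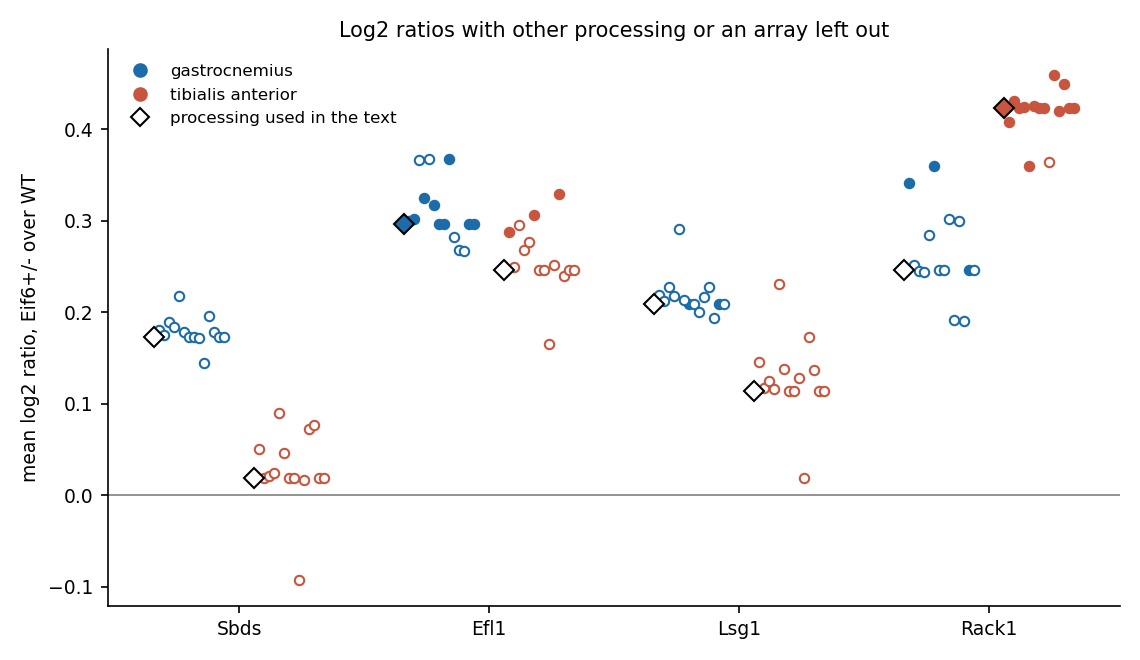
Mean log2 ratio of Eif6+/- over WT for Sbds, Efl1, Lsg1 and Rack1 under the processing used in the text (diamonds) and under each alternative or with 1 array left out (circles), with blue for gastrocnemius and red for TA; filled symbols were called. Rack1 in TA lies between 0.36 and 0.46 under every alternative drawn, and Sbds in TA lies on both sides of 0 (−0.09 to 0.09).

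MRTO4, ZFP622 and DNAJC21 act before or beside the release of eIF6, and their genes were not called in either muscle. Mrto4 (probe A_55_P2043798) ranged from −0.13 to 0.23 in gastrocnemius (mean 0.02, limma adjusted p = 0.893) and from −0.21 to 0.09 in TA (mean −0.07, limma adjusted p = 0.598), with 2 of 4 pairs above 0 in each muscle. Zfp622 (probe A_66_P122087) ranged from −0.34 to 0.25 in gastrocnemius, and its mean of −0.00 (limma adjusted p = 0.996) had the other sign with loess normalization alone, the processed signals and the deposited ratios. In TA, Zfp622 lay above 0 on all 4 arrays (0.02 to 0.36), with a mean of 0.20 ± 0.14 (SD, n = 4 pairs; limma adjusted p = 0.137).

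Dnajc21 was the release factor with ratios below 0 most often. Its brightest probe, A_55_P2150389, gave −0.12, −0.25, −0.20 and −0.03 in gastrocnemius and −0.14, −0.13, −0.40 and −0.10 in TA, below 0 on all 8 arrays. The means of this Dnajc21 probe were −0.15 ± 0.098 in gastrocnemius (SD, n = 4 pairs; limma adjusted p = 0.256) and −0.19 ± 0.14 in TA (SD, n = 4 pairs; limma adjusted p = 0.154), neither of which passed the threshold. The other Dnajc21 probe, A_51_P439857, lay above 0 in 2 of 4 pairs of each muscle, with means of −0.10 in gastrocnemius (limma adjusted p = 0.52) and −0.05 in TA (limma adjusted p = 0.706). The Dnajc21 probes thus differed in how many pairs lay below 0.

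Whether the genotype acted differently in the muscles was tested as the difference of the log2 ratios, gastrocnemius minus TA, over all 8 arrays. Limma called 0 of the 9 members, and 0 of them had an unadjusted p under 0.05; among all 12194 genes it called 0 (0%), with 996 at an unadjusted p under 0.05, and no other tool was run on this difference. The adjusted p of the members lay between 0.712 and 0.98. The difference was −0.02 for Eif6 (95% confidence interval −0.26 to 0.23), 0.05 for Efl1 (−0.22 to 0.32) and −0.18 for Rack1 (−0.44 to 0.08). Efl1 in gastrocnemius and Rack1 in TA are therefore not shown to differ between the muscles. The difference of Zfp622, −0.20 (−0.49 to 0.09), was the largest in size among the members, and that of Sbds was 0.15 (−0.11 to 0.42).

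Levels were also compared between the muscles within each genotype, where both sides carry the same dye. The WT samples enter this comparison and the genotype ratios alike, so that the comparisons are not independent. In WT mice 1 of the 9 members, Nmd3, was called (limma), beside 21.1% of 12194 genes. The WT level of Nmd3 was 7.59, 7.69, 7.77 and 7.599 in gastrocnemius and 8.06, 7.89, 7.88 and 7.94 in TA. The groups did not overlap, which held for 1 of the 9 members and for 20.7% of all genes. WT Nmd3 was lower in gastrocnemius by a log2 difference of −0.28 (95% confidence interval −0.45 to −0.10, limma adjusted p = 0.0485). In Eif6+/- mice the difference of Nmd3 was −0.17 (−0.40 to 0.05, limma adjusted p = 0.313).

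In Eif6+/- mice 1 of the 9 members, Efl1, was called (limma), beside 16.9% of genes. The Eif6+/- level of Efl1 was 8.40, 8.32, 8.34 and 8.42 in gastrocnemius and 8.55, 8.61, 8.49 and 8.64 in TA, without overlap. Efl1 was lower in Eif6+/- gastrocnemius by a log2 difference of −0.20 (95% confidence interval −0.34 to −0.07, limma adjusted p = 0.0705), and in WT mice its difference was −0.25 (−0.51 to 0.01, limma adjusted p = 0.188). In WT mice Efl1 was nevertheless called without gastrocnemius pair 1 (−0.33, limma adjusted p = 0.0922) and without TA pair 1 (−0.34, 0.0791), so that its level is not shown to be specific to Eif6+/- mice. Zfp622 in Eif6+/- mice was also without overlap (−0.17, −0.32 to −0.01) but was not called (limma adjusted p = 0.166), and absence of overlap in Eif6+/- mice held for 2 of 9 members and 18.1% of all genes. The differences of Rack1 were 0.19 in WT (limma adjusted p = 0.244) and 0.01 in Eif6+/- mice (limma adjusted p = 0.957).

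Both calls depended on the processing. The WT difference of Nmd3 was called in 12 of 17 alternatives and that of Efl1 in Eif6+/- mice in 8 of 17. With loess normalization alone they were −0.17 (limma adjusted p = 0.386) and −0.15 (limma adjusted p = 0.442). With the scanner software's processed signals, which shifted the median difference of all genes from −0.03 to 0.20 in WT and 0.21 in Eif6+/- mice, the differences of Nmd3 and Efl1 turned to 0.01 each, or −0.19 and −0.20 relative to that median. Without TA pair 1 or pair 4, Nmd3 had a limma adjusted p of 0.1 and was not called. Efl1 was not called without any 1 of the gastrocnemius pairs or without TA pair 1, 2 or 4 (limma adjusted p between 0.112 and 0.155), and it was called without TA pair 3 (0.0531).

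**Figure D4:**
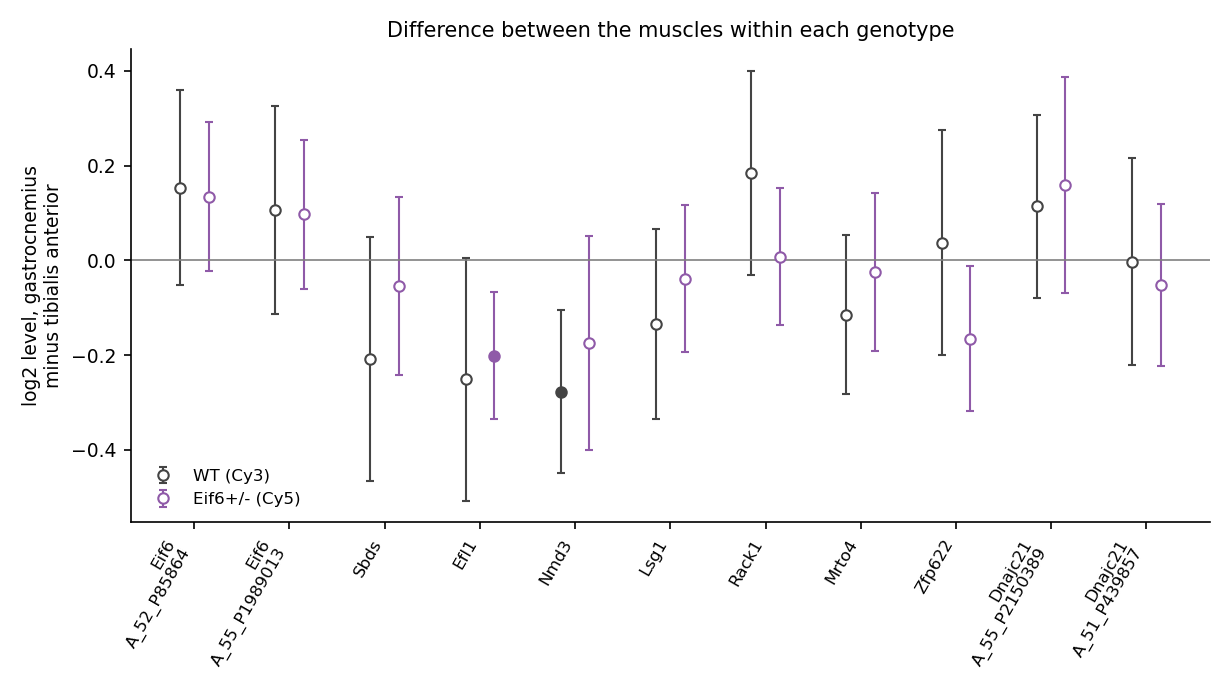
Difference in normalized log2 level between gastrocnemius and TA within WT (grey, Cy3) and Eif6+/- mice (purple, Cy5) for each of the 11 probes, with the 95% confidence interval; filled symbols had a limma adjusted p under 0.1. Nmd3 in WT (−0.28) and Efl1 in Eif6+/- mice (−0.20) are filled; with the scanner software's processed signals, which shifted all genes, both turned to 0.01, or −0.19 and −0.20 relative to the median of all genes.

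Markers of other cells and fibre types differed between the muscles beside Nmd3 and Efl1. Their counts are to be read beside all genes called in either direction, 21.1% in WT and 16.9% in Eif6+/- mice. At an unadjusted p under 0.05 (limma), all genes numbered 3780 of 12194 in WT and 3441 in Eif6+/- mice. Of 12194 genes, 964 were called higher in WT gastrocnemius and 814 in Eif6+/- gastrocnemius than in TA. Of 7 slow fibre genes, 6 were higher in WT and 7 in Eif6+/- gastrocnemius than in TA (limma). Their summed normalized intensity, of which Myl3 made up 49.8%, was 14500, 65010, 41202 and 153667 in WT gastrocnemius, where Nmd3 was low, and 12119, 34659, 10359 and 38234 in WT TA. In Eif6+/- mice it was 135547, 30475, 46985 and 135414 in gastrocnemius, where Efl1 was low, and 12193, 24139, 9969 and 14016 in TA. Of 6 fat cell genes tested, 5 were higher in WT gastrocnemius than in WT TA, with sums (Fabp4 50.1%) of 37059, 30984, 22166 and 70350 against 15140, 13728, 15256 and 16454. In Eif6+/- gastrocnemius 4 fat cell genes were higher and 1 lower, with sums of 26968, 28941, 16654 and 27225 against 15388, 13599, 24598 and 14477 in TA. Lep, which the fat cell sums include, was not well above background in either muscle. Connective tissue genes were higher in gastrocnemius in 4 of 6 cases in WT and in 1 of 6 in Eif6+/- mice, nerve genes in 1 and 5 of 6, and blood genes in 2 of 5 and leukocyte genes in 1 of 3 in Eif6+/- mice. In WT limma called 0 of the 5 blood and 3 leukocyte genes, with 0 and 3 higher at an unadjusted p under 0.05 and no other tool run. Of 8 muscle and 9 fast fibre genes, 1 each was lower in WT gastrocnemius, and 1 fast fibre gene was higher and 1 lower in Eif6+/- gastrocnemius. Tnnt3, Mylpf and Myh4 are in both the muscle and the fast fibre list, here and in the genotype comparisons. The part of these cells and fibres in the levels of Nmd3 and Efl1 was not tested.

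The same markers were read in the genotype comparisons that gave the calls of Efl1 and Rack1. In gastrocnemius, beside Efl1, 2 of 6 fat cell genes, 2 of 8 muscle genes and 1 of 3 leukocyte genes were lower (limma). Of 9 fast fibre genes 1 was higher and 2 were lower. Among all genes in gastrocnemius, 9.87% were called higher and 5.54% lower, and 3654 of 12601 had an unadjusted p under 0.05 (limma). The log2 ratios of the summed intensities in gastrocnemius pairs 1 to 4 were −0.46, −0.10, −0.41 and −1.37 for fat cells and 3.22, −1.09, 0.19 and −0.18 for slow fibres. Efl1 was lowest in pair 1 (0.08), the pair in which the slow fibre genes stood apart. Blood genes, at 0.39, −0.16, −0.36 and −0.05 in pairs 1 to 4, were also highest in pair 1. Nerve genes, at −0.30, −0.24, −0.03 and 0.23, were lowest there. In pair 2, where the slow fibre sum was at −1.09, Efl1 was at 0.34. The ratios of the sums in pairs 1 to 4 were 0.02, 0.05, −1.36 and 0.32 for connective tissue and −0.81, −0.57, −1.74 and −0.42 for the 3 leukocyte genes, lowest in pair 3. Without pair 1 Efl1 had a log2 ratio of 0.37 and was called (limma adjusted p = 0.0621). Without pair 3 Efl1 had a log2 ratio of 0.27 and was not called, as without pair 2 (0.28) or 4 (0.27). Without pair 3 or 4 limma called no gene at all in gastrocnemius. For slow fibre, blood, connective tissue and nerve genes limma called 0 in gastrocnemius, with 0, 3, 1 and 0 at an unadjusted p under 0.05 and 0, 2, 1 and 0 by SAM.

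In TA, beside Rack1, 4 of 5 blood genes, 3 of 7 slow fibre genes, 3 of 6 nerve genes and 1 of 5 leukocyte genes were lower, and 3 of 6 fat cell genes were higher (limma). Of 8 muscle genes 1 was higher and 3 were lower, and of 9 fast fibre genes 1 was higher and 2 were lower. These counts are to be read beside 8.99% of all genes called higher and 7.29% called lower in TA. The muscle and fast fibre lists share Tnnt3, Mylpf and Myh4, so that their counts are not separate. In TA, 3599 of 12375 genes had an unadjusted p under 0.05 (limma). The log2 ratios of the summed intensities in TA pairs 1 to 4 were −0.21, −1.02, −0.47 and −0.02 for blood (Hba-a2 69.6%) and 0.01, −0.52, −0.06 and −1.45 for slow fibres. They were −0.17, −0.53, −0.09 and −0.45 for nerve (Pmp22 63.0%) and 0.02, −0.01, 0.69 and −0.18 for fat cells. The ratios of Rack1 in the same pairs were 0.60, 0.31, 0.43 and 0.35. For 6 connective tissue genes limma called 0 in TA, with 0 at an unadjusted p under 0.05 and 0 by SAM, although the sum (Col1a2 44.2%) had a ratio of 2.13 in pair 3. The leukocyte genes S100a8 and Cd79a were not well above background in either muscle. The part of these cells in the calls of Efl1 and Rack1 was not tested.

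Other genes of the pathway were read to place the release factors of Eif6 among them. The counts of all 5 lists are to be read beside the shares of all genes called higher and lower, 9.87% and 5.54% in gastrocnemius and 8.99% and 7.29% in TA, and whether a list differs from all genes was not tested. Counts at an unadjusted p under 0.05 stand beside 3654 of 12601 genes in gastrocnemius and 3599 of 12375 in TA (either direction). Counts by SAM stand beside 25.1% and 21% of genes. Of 20 other late 60S assembly and export factors, 5 were higher and 1 lower in gastrocnemius, and 4 were higher and 2 lower in TA (limma), with medians of −0.02 and 0.03 beside 0.02 for all genes. Dusp12, whose yeast counterpart frees the subunit of the MRTO4 homologue, rose to a log2 ratio of 0.47 ± 0.23 in gastrocnemius and 0.50 ± 0.15 in TA (SD, n = 4 pairs; limma adjusted p = 0.048 and 0.0183), while Mrto4 had means of 0.02 and −0.07. Xpo1, the export receptor that NMD3 recruits, rose by 0.30 in both muscles (limma adjusted p = 0.0599 and 0.0545), while Nmd3 was not called. Gtpbp4 rose (0.29) and Aamp fell (−0.34) in gastrocnemius, and Zfp593 (0.36) and Bccip (0.29) rose in TA. Pa2g4, the counterpart of the yeast factor that DNAJC21 and ZFP622 help to recycle, was not called in the genotype comparisons and was higher in gastrocnemius than in TA (0.34 in WT and 0.39 in Eif6+/- mice); it was singled out after its values were seen.

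Of 10 proteins of the 60S subunit near the eIF6 site, the stalk and the P site, 1 was higher and 1 lower in gastrocnemius (median −0.07), and 2 were higher and 0 lower in TA (median 0.12; limma, with 0 lower at an unadjusted p under 0.05 and 0 by SAM). Rpl23, the main contact of eIF6 on the subunit, rose to 0.36 ± 0.20 in gastrocnemius and 0.56 ± 0.015 in TA (SD, n = 4 pairs; limma adjusted p = 0.0669 and 0.0118), opposite in direction to Eif6. Rpl3 fell by 0.75 in gastrocnemius, and Rpl11 rose by 0.26 in TA. In WT mice 3 of the 10 (Rpl3 0.73, Rpl10 0.34 and Rpl12 0.31) were higher in gastrocnemius than in TA, beside 21.1% of all genes called in either direction. Limma called 0 of the 10 in Eif6+/- mice, with 1 at an unadjusted p under 0.05 and no other tool run (Rpl3 0.21, Rpl10 −0.10 and Rpl12 0.03). Among all 12194 genes, 3441 had an unadjusted p under 0.05 in that comparison.

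Of 14 kinases, phosphatases, partners and promoter factors of eIF6, 2 were higher and 0 lower in gastrocnemius (median 0.06; 2 lower at an unadjusted p under 0.05 and 1 by SAM). In TA, 3 of 13 were higher and 0 lower (median 0.10; 1 lower at an unadjusted p under 0.05 and 1 by SAM). Csnk1d, of the casein kinase 1 family that phosphorylates eIF6, rose to 0.51 ± 0.15 in gastrocnemius and 0.49 ± 0.15 in TA (SD, n = 4 pairs; limma adjusted p = 0.0318 and 0.0198). Gabpa, a factor that binds CCGGAA, rose in gastrocnemius (0.27), and Csnk1a1 (0.29) and Ppp3r1 (0.25) rose in TA.

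The next list held factors that join ribosomal subunits, the step that eIF6 blocks, and factors that split them. Of the 9 tested, limma called 0 in gastrocnemius (median 0.15), with 2 higher and 0 lower at an unadjusted p under 0.05 and by SAM. In TA, Eif3j1 (0.26), Pelo (0.24) and Denr (0.24) were higher and Eif2d (−0.28) was lower (median 0.20, limma). Of 12 tested p53 target genes, which respond when ribosome assembly is disturbed, Aen (0.33) was higher and Bax (−0.26) lower in gastrocnemius (median −0.07), and Bax (−0.24) and Cdkn1a (−0.24) were lower in TA (median 0.02, limma). No p53 target was called higher in TA by limma, with 0 higher at an unadjusted p under 0.05 and 0 by SAM. In the difference of the genotype effect between the muscles limma called 0 genes of these 5 lists, with 1, 3, 1, 0 and 0 at an unadjusted p under 0.05 in the order given. Among all 12194 genes, 996 had such a p.

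**Figure D5:**
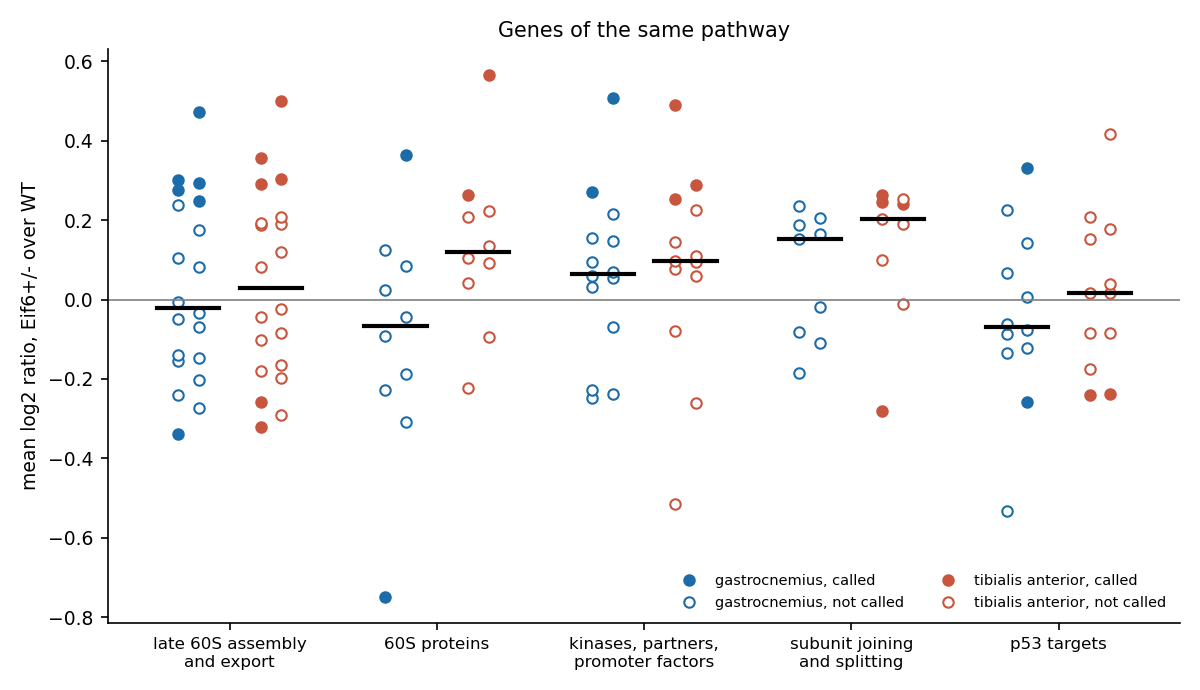
Mean log2 ratio of Eif6+/- over WT for the tested genes of 5 lists of the eIF6 pathway in gastrocnemius (blue) and TA (red), with 1 circle per gene, filled where limma gave an adjusted p under 0.1, and a black bar at the median. The medians lie between −0.07 and 0.20, and Eif6 itself, at −1.02 and −0.999, lies below the range drawn.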

How the data were processed

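The authors deposited, per the file headers, Agilent Feature Extraction 10.5.1.1 output for each array, with spot intensity in Cy5 and Cy3 that was not normalized, local background and quality marks. They also deposited a table of log2 ratios of Cy5 over Cy3, which were not quantile-normalized. These ratios closely followed those of loess-normalized uncorrected intensities (r between 0.999963 and 0.999996 with values computed here). The study's methods name log2 transformation, quantile normalization and SAM, and mention Cy3 labelling alone.

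Median spot intensities were corrected with normexp (offset 50), normalized by loess within arrays (control spots at weight 0) and by quantiles across 16 channels with limma 3.58.1 in R 4.3.3. Control spots and 233 to 318 outlier spots per array were left out, and spots of a probe were averaged. Probes had to be well above background in Cy3 or Cy5 on each of a muscle's 4 arrays. Log2 ratios were tested against 0 with lmFit and eBayes, within each muscle, and differences between the muscles over all 8 arrays (22757 probes), with Benjamini-Hochberg adjustment over all kept probes and a threshold of 0.1. SAM used all sign changes. The limma fits and SAM were tested on simulated log2 ratios, whereas background correction, normalization and the filter were not. Accessions of 27235 of 28685 probes were matched to a gene table of assembly GRCm38.p6, from which only names and neighbours were taken. Figures were drawn with matplotlib 3.10.9.

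The members, the lists of pathway and marker genes and the tests were chosen with earlier results of these data known. All members were named. Of each pathway list, up to 4 called genes with the largest mean log2 ratio and the same sign on all 4 arrays of a muscle were named, and other genes named with a value were chosen after their values were seen. The genes named as most like Eif6 were those with the smallest root mean square difference over the 8 arrays, and called neighbours were named among 10 on each side. Alternatives were loess or quantile normalization alone, offset 0, no background correction, processed signals, no filter or a stricter one, the deposited log2 ratios, each array left out, 1 spread for both muscles, SAM, the mean of a gene's probes and pair number as a block. Soleus, polysomal RNA, proteins and human samples were not analysed here.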

Additional observations from a re-analysis of the deposited data

Results flagged for a closer look

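Within each muscle, the log2 ratios and the levels in each channel of the 11 probes were searched for an array far from the other 3 (66 groups of 4 arrays, of which chance picks out about 5%), and 2 such values were found. In gastrocnemius, Efl1 had a log2 ratio of 0.083 in pair 1, whereas the other pairs gave 0.34 to 0.38. In TA, Dnajc21 (probe A_55_P2150389) had a log2 ratio of −0.40 in pair 3, whereas the other pairs gave −0.14 to −0.10. The cause of either value was not tested. Without gastrocnemius pair 1, Efl1 had a log2 ratio of 0.37 and was still called (limma adjusted p = 0.0621). Without TA pair 3, Dnajc21 had a log2 ratio of −0.12 and was not called (limma adjusted p = 0.408).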

How the results depend on the processing

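Under alternative processing, 24 results gave 390 values, of which 333 were taken as the same. For a ratio this meant the same direction and side of the threshold, and for a count of members a change of at most 1.5 times. A count could thus stay the same with other members called. Of the other values, 8 lost the call, 13 gained it, 14 changed sign and 22 counts moved by over 1.5 times. The fall of Eif6 in TA was called under all 16 alternatives (−1.15 to −0.93). In gastrocnemius Eif6 lay between −1.16 and −0.97, and with 1 array left out between −1.06 (without pair 3, not called) and −0.97; without pair 4 it was −1.004 and not called. The members called in gastrocnemius numbered 1 with offset 0 and with processed signals (Eif6), 4 with 1 spread for both muscles, 5 by SAM at 0.1 and 0 to 2 with 1 array left out; in TA they numbered 1 to 3 with 1 array left out. The cause of these changes was not tested. Genes called genome-wide in gastrocnemius went from 1942 to 1203 with processed signals, 2973 with 1 spread, 3157 by SAM and 0 without pair 3 or 4 (2442 and 2679 at an unadjusted p under 0.05, limma). In TA they went from 2014 to 1210 with offset 0, 841 with processed signals, 948 by SAM at 0.05 and 68, 543 and 1186 without pair 1, 2 or 3. Among called TA genes 55.2% were higher, and 64.6% with loess alone.

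The difference between the muscles in the Eif6 ratio (−0.02) changed sign with loess alone (0.0027), with deposited ratios (0.0038) and among arrays left out (−0.092 to 0.048), and was called nowhere. Genome-wide, 0 genes differed by limma (996 at an unadjusted p under 0.05), and 1 with processed signals or no filter. For levels, the members called were 0 in WT with loess alone or processed signals and 0 to 2 with 1 array left out (Efl1 and Nmd3 without gastrocnemius pair 1, Efl1 in place of Nmd3 without TA pair 1). In Eif6+/- mice they were 0 with loess alone or processed signals and 0 to 1 with 1 array left out. Genes called in WT went from 2574 (37.5% higher) to 1521 with loess alone (53.8%) and 1542, 1681, 1581 and 1627 without gastrocnemius pair 3 or TA pair 2, 3 or 4. In Eif6+/- mice they went from 2058 (39.6% higher) to 765 with loess alone (59.1%) and 1047, 1173, 1172, 952 and 1056 without gastrocnemius pair 1, 2 or 4 or TA pair 1 or 2. With processed signals 86.5% and 96.5% were higher.

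Among single members not called, values moved by over 1.5 times for Mrto4 in TA (−0.13 with processed signals, −0.12 to −0.021 with 1 array left out), for Zfp622 in TA (0.12 with processed signals) and for Dnajc21 in TA (−0.12 without pair 3 or as the mean of its probes). So did Lsg1 in TA (0.019 without pair 2, 0.17 without pair 3, 0.23 with processed signals). Nmd3 in gastrocnemius moved likewise (0.023 to 0.21 with 1 array left out, 0.050 with processed signals). Signs changed for Sbds in TA (−0.093 to 0.076 with 1 array left out), for Nmd3 in TA (0.031 with loess alone, 0.019 with deposited ratios, −0.044 to 0.026 with 1 array left out), for Mrto4 in gastrocnemius (−0.047 to 0.073 with 1 array left out) and for Zfp622 in gastrocnemius (0.029 with loess alone, 0.049 with processed signals, 0.026 with deposited ratios, −0.085 to 0.11 with 1 array left out). The cause was not tested. The labels do not say whether equal pair numbers in the muscles mark the same mice, and in no measure was r over 0.1 for every pair of same-numbered arrays. It was −0.145, 0.0186, −0.356 and 0.0895 for the log2 ratios, −0.376, 0.114, −0.071 and 0.192 for WT levels and 0.187, 0.0153, 0.0226 and 0.153 for Eif6+/- levels. The own number gave the highest r for pair 4 in WT and for pairs 1 and 4 in Eif6+/- mice, so that shared and separate mice cannot be told apart. With pair number as a replicate block, 0 members were called in WT (Nmd3, limma adjusted p = 0.127) and 1 in Eif6+/- mice (Efl1), and genes called went from 2574 to 1858 and from 2058 to 2249. Of other genes counted in the text, Rpl10, Rpl12 and Col1a1 were not called in WT with the block, nor Myl3, Adipoq, Cidec and Cfd in Eif6+/- mice, while Rpl3 and Pa2g4 were; Des was called in Eif6+/- mice. The 88 spots of the members were all well above background in both channels, yet with offset 0 Efl1 in gastrocnemius went from 0.30 to 0.37 and lost its call (limma adjusted p = 0.101), and WT Nmd3 went from −0.28 to −0.37 and stayed called (0.0583).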
